A study of Mus musculus with 2 samples.

Results

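The cluster epend.1 is the main ependymal cluster of a single-nucleus RNA sequencing (snRNA-seq) data set from the mouse brainstem. Its members were taken as the nuclei that carry this name in the deposited cluster annotation, 174 of 18281 nuclei. The wildtype (WT) library held 129 of them and the Scn1a knock-in (HET) library held 45. Each library came from the brainstem of a female mouse on the C57Bl6 background at postnatal day 41, and neither group was treated. HETs carried the A1783V missense allele of Scn1a, the gene of the voltage-gated sodium channel Nav1.1, opposite a WT allele. They were bred from a male with the floxed allele and a female with Sox2-Cre, which acts in the early embryo, so the allele was not limited to neurons. WTs were littermates with intact Scn1a. With 1 library per genotype there was no replicate to set a difference against, so no test was run and no p-value is given. All intervals are exact 95% intervals that cover counting error only, and a difference between genotypes cannot be told apart from a difference between libraries.

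Ependymal cells line the ventricles and the central canal as an epithelial sheet. Tufts of motile cilia on their free surface beat to move cerebrospinal fluid. Each cilium is built on a microtubule core, the axoneme, to which outer and inner dynein arms, radial spokes, a central pair and the nexin-dynein regulatory complex are attached. The genes of these parts are switched on together by the transcription factor Foxj1 and by factors of the RFX family, which bind a DNA element called the X-box. A long list of axonemal genes is therefore the usual signature of a ciliated nucleus.

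The 3 markers named for this cluster were present, but not in all of its nuclei. Levels are given as unique molecular identifiers (UMIs, counted RNA molecules) scaled to a total of 1000000 over the summed nuclei (CPM). The cluster was made up of 2 deposited finer clusters, numbered 23 and 32. Subcluster 23 held 124 nuclei, 82 WT and 42 HET. Subcluster 32 held 50 nuclei, 47 WT and only 3 HET. Dnah12, an inner arm dynein heavy chain, stood at 2703 CPM in subcluster 23, 27.6 CPM in subcluster 32 and 3.87 CPM in all nuclei outside epend.1. Foxj1 stood at 84.6 CPM in subcluster 23 and was not counted in subcluster 32, against 3.84 CPM outside. Ccdc153, a coiled-coil protein of motile cilia, stood at 283 CPM in subcluster 23 and was not counted in subcluster 32, against 0.972 CPM outside. The 3 markers thus identified subcluster 23 and left subcluster 32 unmarked.

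In the GRCm38 (mm10) annotation of GENCODE vM21, Dnah12 spans chromosome 14 from 26693274 to 26891703 on the plus strand. Foxj1 lies on chromosome 11 from 116330704 to 116335399 on the minus strand. Ccdc153 lies on chromosome 9 from 44240676 to 44247306 on the plus strand.

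Promoters of the motile cilium genes are shown because the cluster is defined by many genes of this kind at high level together. RefSeq promoter sequences of GRCm38.p6, each 250 bases before to 50 after a gene's start, were matched by symbol for 84 of the 103 listed cilium genes, with 96 promoters. The X-box was searched on both strands as GTNNCC, then any 3 bases, then GNAAC, in which N is any base. Its core was searched separately as GTTGCC, which can lie inside an X-box. The X-box letters occurred in 19.8% of the cilium promoters, 2.17% of all 32851 promoters of the table and 1.39% of the promoters of ribosomal protein genes. The core occurred in 46.9% of the cilium promoters, 12.5% of all promoters and 11.1% of those of ribosomal protein genes. The forkhead letters TGTTTAC, searched likewise, occurred in 5.21% of the cilium promoters and in 3.65% of all. The 250 bases before the start are printed here for Ccdc153 and for the 3 cilium genes with the highest level in Epithelial-labelled nuclei among those that have X-box letters before the start. Capitals mark the letters of an X-box or of its core. A match is a description of these letters, and no binding was measured.
Ccdc153, chr9:44240427-44240676, plus strand: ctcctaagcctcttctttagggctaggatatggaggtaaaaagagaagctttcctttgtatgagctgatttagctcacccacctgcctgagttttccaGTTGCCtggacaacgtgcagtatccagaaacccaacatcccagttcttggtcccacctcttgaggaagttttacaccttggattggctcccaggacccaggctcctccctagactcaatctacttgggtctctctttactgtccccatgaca
Spag16, chr1:69826720-69826969, plus strand: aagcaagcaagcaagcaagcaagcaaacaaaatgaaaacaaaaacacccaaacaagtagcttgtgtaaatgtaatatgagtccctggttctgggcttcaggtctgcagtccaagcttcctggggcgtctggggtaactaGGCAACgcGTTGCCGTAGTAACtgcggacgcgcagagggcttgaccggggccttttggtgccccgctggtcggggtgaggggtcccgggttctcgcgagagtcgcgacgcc
Cfap44, chr16:44394549-44394798, plus strand: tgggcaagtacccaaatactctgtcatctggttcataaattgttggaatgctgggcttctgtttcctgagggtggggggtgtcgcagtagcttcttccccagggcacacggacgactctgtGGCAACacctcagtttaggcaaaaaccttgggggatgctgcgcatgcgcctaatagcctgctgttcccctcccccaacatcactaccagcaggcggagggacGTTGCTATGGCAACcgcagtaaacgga
Hydin, chr8:110266727-110266976, plus strand: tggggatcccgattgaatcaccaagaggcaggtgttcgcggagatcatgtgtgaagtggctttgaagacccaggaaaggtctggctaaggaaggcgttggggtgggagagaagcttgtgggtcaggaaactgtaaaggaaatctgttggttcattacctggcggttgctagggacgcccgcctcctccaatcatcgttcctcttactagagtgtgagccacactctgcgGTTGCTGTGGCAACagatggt

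The 174 nuclei held 425031 UMIs in WT and 227141 UMIs in HET. Their median depth was 2343 UMIs in WT and 2746 UMIs in HET, below the medians of 5528 and 5683 UMIs of the nuclei outside the cluster. Between the libraries 23 cell barcodes were shared, none of them in epend.1. The deposited doublet score was high in the cluster, with a median of 0.292 against 0.142 outside. Of the 174 nuclei, 49 (28.2%) were in the top 5% of the doublet score of their library, 42 WT and 7 HET. Among Epithelial-labelled nuclei, described further on, these were 22 of 63 WT and 0 of 25 HET nuclei. A single HET nucleus stood apart in size. It held 56047 UMIs, 24.7% of all HET UMIs of the cluster, and carried the reference label Neurons. Only 0.30% of its UMIs were in cilium genes, and its doublet score of 0.335 was in the top 5% of its library. Several of the values that follow are therefore given also without this HET nucleus. Epithelial-labelled nuclei had large members too, in WT. The largest held 23900 and 15354 of their 216644 WT UMIs, with doublet scores of 0.371 and 0.361. The largest HET Epithelial-labelled nucleus held 6533 UMIs. No ratio for Epithelial-labelled nuclei is given without these large WT nuclei, so their part in those ratios was not tested.

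The genes with the highest ratio of CPM in epend.1 over all other nuclei, among genes with at least 100 UMIs in the cluster, were Gm19301, Zfp474, Dthd1, Gm47888, Fam216b, Unc5cl, Ccdc180, Gm10714, C230072F16Rik and Frmpd2. The same 10 genes led subcluster 23 in the same order. Unc5cl, the most abundant of them, stood at 712 CPM in subcluster 23 and 0.508 CPM outside epend.1. Since clusters are made from the same counts, these ratios describe the cluster and test nothing. Only Fam216b of the 10 belonged to the cilium or ependymal marker lists.

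The 103 motile cilium genes stood at 31210.3 CPM in subcluster 23 and 1307 CPM in subcluster 32. In epend.1 as a whole they stood at 26228 CPM, against 12581 CPM in epend.2, the other cluster with an ependymal name, and 1821 CPM in the astrocyte cluster. The 10 ependymal markers stood at 4062 CPM in epend.1 and 190.2 CPM in epend.2. In subcluster 23, 123 of the 124 nuclei had at least 3 UMIs of ependymal markers. In subcluster 32 this held for 1 of the 50 nuclei. Outside epend.1, only 7 of the 18107 nuclei had at least 3 ependymal marker UMIs together with at least 1% of their UMIs in cilium genes, 6 of them in epend.2, while 121 nuclei of epend.1 met both lines. These lines were drawn after the values were seen.

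Subcluster 32 did not carry the markers of its ependymal name. Among genes with at least 20 UMIs, the highest ratios of CPM over nuclei outside epend.1 were those of Neu4, a sialidase, Pdgfra, the receptor of platelet-derived growth factor A, Cspg4, the NG2 proteoglycan, and Gpr17, a receptor of maturing oligodendrocyte precursors. The 5 markers listed for oligodendrocyte precursor cells (OPCs) stood together at 2595 CPM in subcluster 32, 31.3 CPM in subcluster 23 and 34.7 CPM outside epend.1. Vcan, the proteoglycan versican, was the highest of them at 1049 CPM in subcluster 32. Pdgfra stood at 791 CPM there and at 4.76 CPM outside epend.1. On these markers subcluster 32 is OPC-like. Of its 50 nuclei, 17 (34%) were in the top 5% of the doublet score of their library, 15 WT and 2 HET. The part of doublets in these values was likewise not tested.

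The genotypes were unequally represented in subcluster 32. At least 3 UMIs of OPC markers were found in 42 of the 47 WT nuclei and in 1 of the 3 HET nuclei of subcluster 32. That HET nucleus held 2558 UMIs with 5 OPC marker UMIs, but also 1.06% of its UMIs in cilium genes and 3 ependymal marker UMIs. The other HET nuclei of this subcluster had 2 and 1 OPC marker UMIs. Outside epend.1, 27 WT and 38 HET nuclei met a line of at least 3 OPC marker UMIs that made up at least 0.1% of the nucleus, of which 24 lay in the fibroblast cluster and 16 in the oligodendrocyte cluster. Within epend.1, 41 WT and 1 HET nuclei met the same line.

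**Figure D1:**
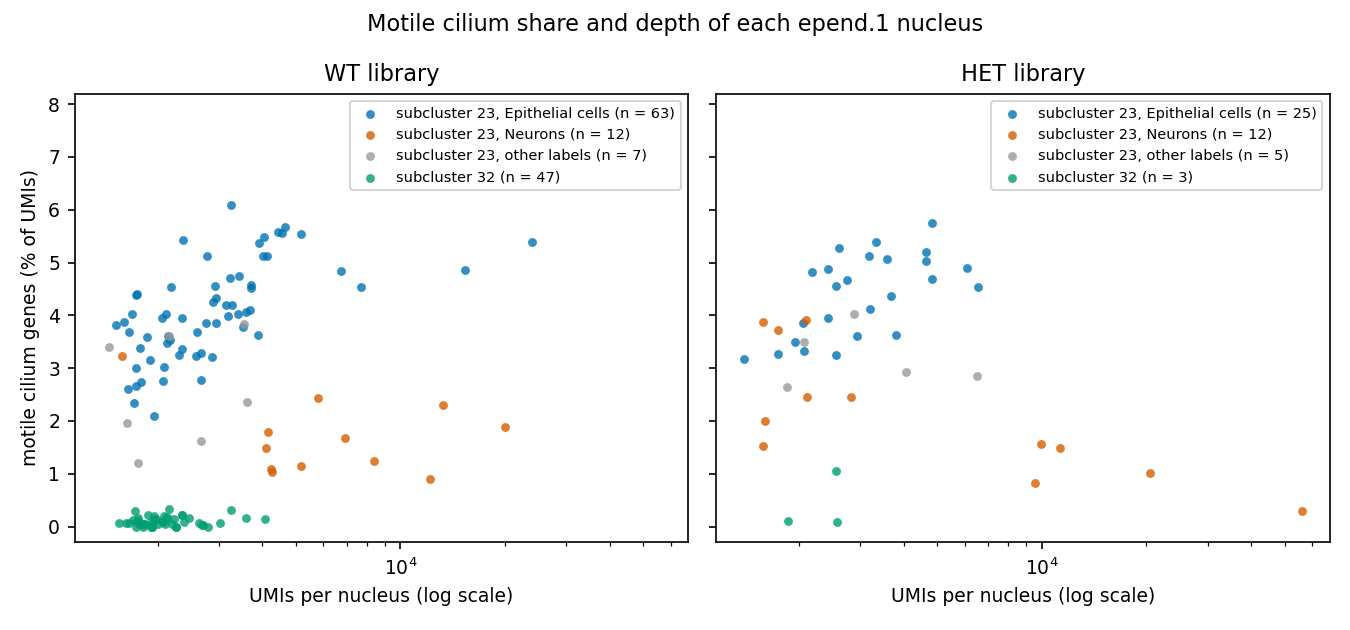
Share of each nucleus' UMIs in the 103 motile cilium genes (vertical axis, %) against its UMIs (horizontal axis, log scale) for WT (left) and HET (right). Points are nuclei, coloured by subcluster and reference label. Nuclei of subcluster 32 lie at the bottom with a highest value of 1.06%, Epithelial-labelled nuclei lie between 2.1% and 6.1%, and the HET nucleus with 56047 UMIs lies far to the right at 0.30%.

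The deposited reference labels split epend.1 mainly into Epithelial cells, with 88 nuclei, and Neurons, with 71 nuclei. A further 9 nuclei were labelled Astrocytes, 5 Oligodendrocytes and 1 Microglia. All 88 Epithelial-labelled nuclei lay in subcluster 23, 63 WT and 25 HET. The Neurons label was not a single group. It covered 47 nuclei of subcluster 32, 44 WT and 3 HET, and 24 nuclei of subcluster 23, 12 of each genotype. A finer set of labels in the same annotation named 80 nuclei of the cluster Ependymal, 61 WT and 19 HET.

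Epithelial-labelled nuclei carried the ciliated program throughout. Cilium genes took between 2.1% and 6.1% of the UMIs of each WT nucleus, with a median of 4.02%, and between 3.17% and 5.74% in HET nuclei, with a median of 4.55%. The ranges overlapped. A UMI of Dnah12 was found in 98.9% of Epithelial-labelled nuclei, against 0.835% of astrocyte nuclei at median depths of 2757 and 3165 UMIs. After each nucleus was thinned to 1000 UMIs the Dnah12 shares were 89.4% and 0.252%. For Foxj1, a low transcript, the share was 31.8%, or 11.3% after thinning, against 1.59% of astrocyte nuclei, or 0.506% after thinning. For Ccdc153 it was 62.5%, or 32% after thinning, against 0.303% of astrocyte nuclei. Ependymal markers stood at 7033 CPM, while neuronal markers stood at 2150.1 CPM, below their 2788 CPM in subcluster 32.

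Epithelial-labelled nuclei also stood out in the share of mitochondrial transcripts, which the authors recorded for each nucleus and then took out of the counts. The median was 7.8% in WT and 6.25% in HET nuclei. Outside epend.1 the medians were 0.337% and 0.456%, and in subcluster 32 they were 0.924% and 0.93%. Of the 32 nuclei of the series with more than 10% mitochondrial transcripts, 26 were in subcluster 23. The ranges overlapped, since Epithelial-labelled nuclei started at 0.331%.

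Taken as sums, the 24 Neurons-labelled nuclei of subcluster 23 carried cilium genes and neuronal genes together. Single nuclei varied, with neuronal markers at 0.0573% to 1.75% of their UMIs. Epithelial-labelled nuclei ran from 0% to 0.623%, so the ranges overlapped. Cilium genes stood at 16538 CPM in the 12 WT nuclei and 9617 CPM in the 12 HET nuclei, against 44289 and 45554 CPM in Epithelial-labelled nuclei of the same libraries. The nucleus of 56047 UMIs is 1 of the 12 HET nuclei, and without it the HET level was 15343 CPM, near that of WT. The neuronal markers stood at 9198 CPM in WT and 11884 CPM in HET nuclei, against 2068 and 2367 CPM in the Epithelial-labelled nuclei. That nucleus held 981 of the 1436 neuronal marker UMIs of the HET group, and without it the HET level was 7023 CPM, below that of WT. Their median depth was 5474 UMIs in WT and 2469.5 UMIs in HET, against 2747 and 2932 UMIs of Epithelial-labelled nuclei. Of the 24, 7 were in the top 5% of the doublet score of their library. The part of doublets in these values was not tested.

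**Figure D2:**
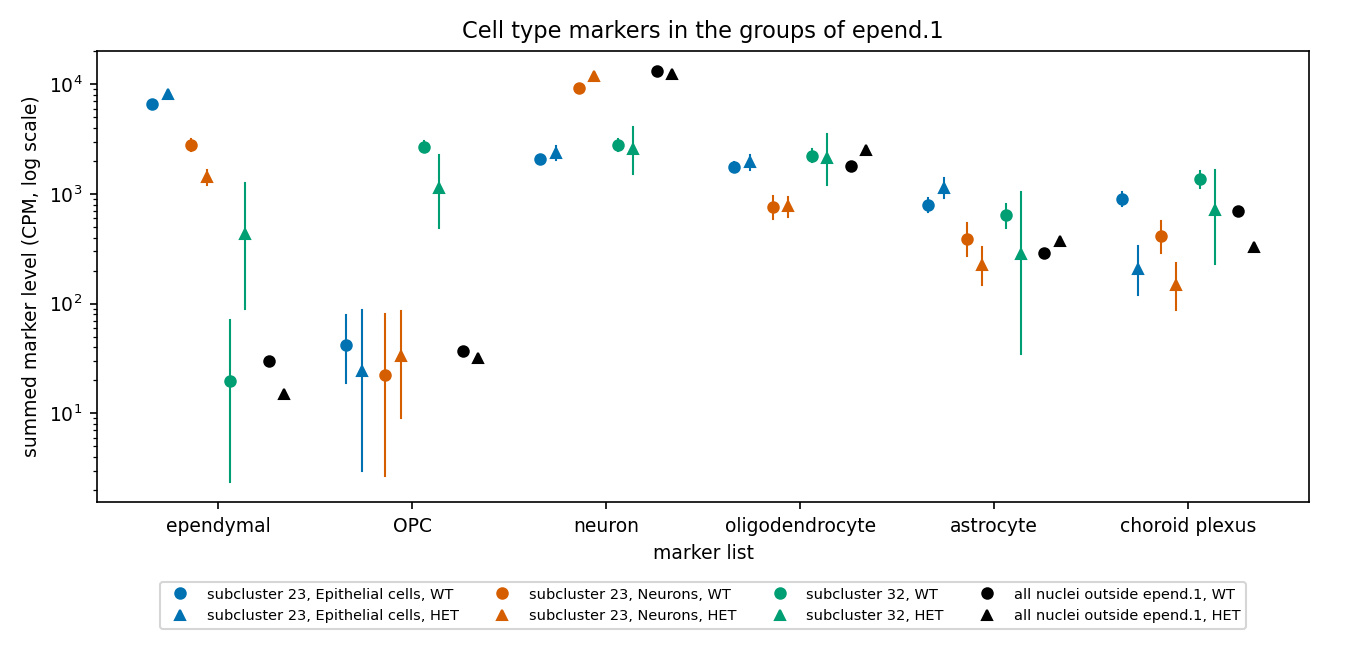
Summed level of lists of cell type markers (CPM, log scale) in the Epithelial-labelled and Neurons-labelled nuclei of subcluster 23, in subcluster 32 and in all nuclei outside epend.1, drawn separately for WT and HET with exact 95% intervals of counting error. Over both libraries the OPC markers stand at 2595 CPM in subcluster 32 and 36.8 CPM in Epithelial-labelled nuclei, and ependymal markers stand at 46 and 7033 CPM. The HET value of the Neurons-labelled nuclei includes the nucleus of 56047 UMIs.

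Between the label groups of subcluster 23, Neurons over Epithelial cells, the genes furthest lower were Slc39a12, Maats1, Gsn, Dnaic1 and Lrrc71. Dnaic1, an intermediate chain of the outer dynein arm, stood at 42.7 CPM in Neurons-labelled and 322 CPM in Epithelial-labelled nuclei. Maats1, a radial spoke protein, stood at 33.2 and 305 CPM. The genes furthest higher were Chrm3, 4930445B16Rik, Gpc5, 6330411D24Rik and Sntg1. Chrm3, the muscarinic acetylcholine receptor M3, stood at 484 CPM in Neurons-labelled and 3.35 CPM in Epithelial-labelled nuclei. Gpc5, a glypican, stood at 1305 and 26.8 CPM. Without the nucleus of 56047 UMIs the Neurons-labelled level was 278 CPM for Chrm3 and 375 CPM for Gpc5, and Brinp1 and Grm5 took the places of Gpc5 and Sntg1 among the 5 genes furthest higher. With the Neurons label taken over both subclusters, Maats1, Slc39a12, Dnaic1, Lrrc71 and Rp1 were furthest lower and 4930445B16Rik, Chrm3, Gm32509, Gpc5 and Sntg1 furthest higher. The labels were made from these counts, so the differences describe the labels.

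The split by subcluster gave another set of genes. Vcan, Itga9, Gm38505, Xylt1 and Cspg5 were furthest higher in subcluster 32. Itga9, an integrin subunit, stood at 902 CPM in subcluster 32 and 11 CPM in subcluster 23. Xylt1, the enzyme that starts glycosaminoglycan chains on proteoglycans, stood at 1979 and 53.4 CPM, or 30.8 CPM in subcluster 23 without the nucleus of 56047 UMIs. Cspg5, a chondroitin sulfate proteoglycan, stood at 883 and 38.6 CPM. Genes with no UMI in subcluster 32 tied for the lowest place, among them Ak7 and Ak9, adenylate kinases of motile cilia, at 642 and 565 CPM in subcluster 23. A count of 0 of the 108666 UMIs of subcluster 32 allows up to 3 UMIs. Neuronal markers were lower in subcluster 32 than in subcluster 23, at 2788 and 5476 CPM, with 4093 CPM in subcluster 23 without that nucleus, although 47 of its 50 nuclei carried the Neurons label.

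The first comparison of genotypes was the share of nuclei. Nuclei of epend.1 made up 1.39% (1.16 to 1.65%) of WT nuclei and 0.499% (0.364 to 0.667%) of HET nuclei, 2.79-fold more in WT. For subcluster 23 the shares were 0.886% (0.705 to 1.1%) and 0.466% (0.336 to 0.629%), 1.9-fold more in WT. For subcluster 32 they were 0.508% (0.373 to 0.674%) and 0.0333% (0.00686 to 0.0971%), 15.3-fold more in WT. For Epithelial-labelled nuclei they were 0.68% (0.523 to 0.87%) and 0.277% (0.179 to 0.409%), 2.46-fold more in WT. The fold was thus smaller in subcluster 23 than in the whole cluster. The intervals treat nuclei as independent draws, and the amount of ventricular wall in either sample was not measured.

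Of the nuclei of epend.1, subcluster 32 made up 36.4% (28.1 to 45.4%) in WT and 6.67% (1.4 to 18.3%) in HET. A comparison of summed counts over epend.1 therefore sets different mixtures of nuclei side by side. The values that follow are given for the whole cluster, as the annotation defines it, and for Epithelial-labelled nuclei alone.

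Scn1a, the gene that carries the knock-in allele, was low in ciliated nuclei. In Epithelial-labelled nuclei it stood at 60.0 CPM (13 UMIs) in WT and 85.4 CPM (7 UMIs) in HET, with a log2 ratio of HET over WT of 0.51 (-1.06 to 1.94). Astrocyte nuclei had 61.5 and 66.5 CPM of Scn1a, and nuclei of the neuronal clusters had 430.4 and 493 CPM. Over the whole cluster Scn1a stood at 151 CPM in WT and 308 CPM in HET, for a log2 ratio of 1.03 (0.52 to 1.55). It stood at 239 CPM in subcluster 32 and at 399 CPM in the Neurons-labelled nuclei of subcluster 23, with the nucleus of 56047 UMIs included. Without that nucleus the HET UMIs of Scn1a over the cluster fell from 70 to 31, and the ratio was 0.27 (-0.40 to 0.91). The allele itself cannot be read from counts per gene.

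Motile cilium genes as a list differed little between the genotypes in Epithelial-labelled nuclei. The label was itself made from these counts, and every nucleus with it had at least 2.1% of its UMIs in cilium genes. The part of this selection in the ratio was not tested. The list stood at 44289 CPM in WT and 45554 CPM in HET, for a log2 ratio of 0.04 (-0.01 to 0.10). Of the 103 genes, 85 had at least 20 UMIs there, 45 with a ratio above 0 and 40 below, with a median of 0.05 beside -0.04 over all genes. A gene is called here when its log2 ratio is at least 1 or at most -1 and its counting interval excludes 0. In Epithelial-labelled nuclei 3.55% of 3183 genes were called higher and 4.43% lower in HET. Of the cilium genes, 1 was called higher and 3 were called lower, shares near the background. The share of cilium UMIs per nucleus in subcluster 23 had a median of 3.74% in WT and 3.79% in HET nuclei.

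Dnah12 was the cilium gene with the most UMIs in Epithelial-labelled nuclei. It had 708 UMIs (3268 CPM) in WT and 425 UMIs (5186 CPM) in HET, for a log2 ratio of 0.67 (0.49 to 0.84). Over subcluster 23 the Dnah12 ratio was -0.08 (-0.24 to 0.07), and 0.30 (0.14 to 0.45) without the nucleus of 56047 UMIs. Foxj1 stood at 125 and 122 CPM in Epithelial-labelled nuclei, on 27 and 10 UMIs. Ccdc153 stood at 471 CPM in WT and 305 CPM in HET, for a log2 ratio of -0.63 (-1.32 to 0.02). In the whole cluster Ccdc153 had a ratio of -1.2 (-1.84 to -0.61), or -0.80 (-1.43 to -0.20) without that nucleus. The 3 markers of the cluster thus did not share a direction.

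By part of the cilium, the inner dynein arms were summed at 9578 CPM in WT and 11922 CPM in HET Epithelial-labelled nuclei, for a log2 ratio of 0.32 (0.20 to 0.43). Dnah12 alone made up 3268 CPM of that sum in WT and 5186 CPM in HET, and no ratio without it is given. None of the 12 inner arm genes was called. Dnah6, another inner arm chain, stood at 1722 and 1745 CPM. The outer dynein arms were level, at 5511 and 5479 CPM, for a log2 ratio of -0.01 (-0.17 to 0.15). Among the outer arm heavy chains, Dnah9 stood at 1237 and 1123 CPM, Dnah11 at 1085 and 1147 CPM, and Dnah5 at 697 and 647 CPM. None of the 10 outer arm genes with at least 20 UMIs was called.

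Radial spoke and central pair genes were summed at 14498 CPM in WT and 14338 CPM in HET, for a log2 ratio of -0.02 (-0.11 to 0.08). Spag16, of the central pair, stood at 2626 and 2636 CPM, and Hydin, of the same structure, at 1103 and 988 CPM. Cfap221, a central pair protein, was the 1 cilium gene called higher, with 38 UMIs (175 CPM) in WT and 33 UMIs (403 CPM) in HET. Its log2 ratio was 1.2 (0.48 to 1.91). Cfap65, also of the central pair, had a ratio of -0.61 (-1.02 to -0.21) and was not called. The nexin-dynein regulatory complex had a summed log2 ratio of 0.03 (-0.23 to 0.29), and the other axonemal genes one of -0.02 (-0.14 to 0.10).

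The regulators of ciliogenesis had a lower sum in HET, at 2109 CPM in WT and 1562 CPM in HET Epithelial-labelled nuclei. The log2 ratio was -0.43 (-0.73 to -0.15). All 6 of the 12 regulators that had at least 20 UMIs had a ratio below 0. Of them 1 was called lower, beside 4.43% of all genes in these nuclei. Ccdc78, which takes part in centriole amplification, was the gene called lower, with 39 UMIs (180.0 CPM) in WT and 2 UMIs (24.4 CPM) in HET, a ratio of -2.88 (-5.98 to -0.93). Rfx3, the most abundant, stood at 1057 and 866 CPM, a ratio of -0.29 (-0.69 to 0.10). Rfx2 stood at 305 and 171 CPM, a ratio of -0.83 (-1.78 to 0.01). The other cilium genes called lower were Spag1, a dynein arm assembly factor, at -1.45 (-3.15 to -0.09), and Mns1, an axonemal protein, at -1.32 (-2.45 to -0.35).

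Over the whole cluster the cilium list was lower in HET, at 27379 and 24073 CPM, for a log2 ratio of -0.19 (-0.23 to -0.14). In the same comparison 5.41% of 6511 genes were called higher and 9.4% lower. Of the 88 cilium genes with at least 20 UMIs, 1 was called higher, Rsph14, and 4 were called lower, Ccdc78, Zmynd10, Gas8 and Spag1. In subcluster 23 the sum was -0.53 (-0.58 to -0.48), 83 of 88 cilium genes had a ratio below 0 and 16 were called lower, beside 9.89% of all genes there called lower and 7.42% called higher. Without the HET nucleus of 56047 UMIs it was -0.15 (-0.20 to -0.10) in subcluster 23, with 3 of 88 called lower, beside 5.48% of all genes called lower and 4.35% called higher. For epend.1 without that nucleus it was 0.18 (0.13 to 0.23), with 3 of 88 genes called higher and 3 lower, beside 3.85% and 6.24% of all genes. The direction over the whole cluster thus turned when 1 nucleus was left out, while that of subcluster 23 did not. Subcluster 32, low in cilium genes, made up 36.4% of WT and 6.67% of HET nuclei of epend.1, and its part was not tested. The label mixture of subcluster 23 differed too. Its Neurons-labelled nuclei, lower in cilium genes, held 89913 of 323361 WT UMIs and 120833 of 220145 HET UMIs. Without the nucleus of 56047 UMIs they held 64786 of 164098 HET UMIs. The part of this mixture in the ratios of subcluster 23 was not tested. Without the nuclei in the top 5% of the doublet score, the nucleus of 56047 UMIs among them, the cilium ratio over epend.1 was 0.74.

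**Figure D3:**
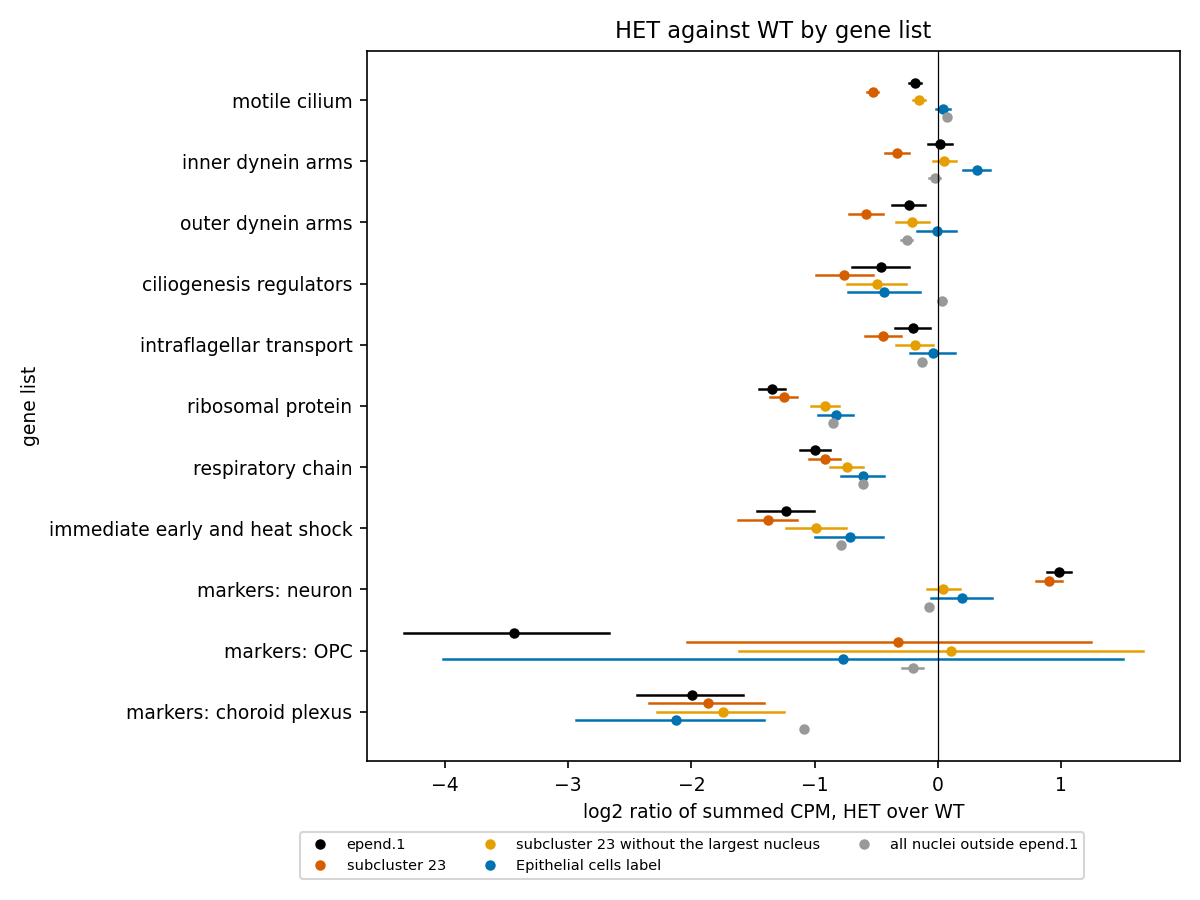
Log2 ratio of summed CPM, HET over WT (horizontal axis), for gene lists (vertical axis) in sets of nuclei within epend.1 and in all nuclei outside it. Points are ratios and bars exact 95% intervals of counting error. The ribosomal protein list is below 0 in every set, at -1.35 in epend.1 and -0.83 in Epithelial-labelled nuclei, while the motile cilium list lies on both sides of 0.

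Ribosomal protein genes were lower in HET in ciliated nuclei and elsewhere. In Epithelial-labelled nuclei the list stood at 10672 CPM in WT and 6016 CPM in HET, for a log2 ratio of -0.83 (-0.97 to -0.69). Of 72 genes with at least 20 UMIs, 64 had a ratio below 0 and 8 above, with a median of -0.92. Called lower were 20 of the 72, against the background of 4.43%, and none was called higher. The highest ratio of the 72 was that of Rpl10, of the large subunit, on 14 and 8 UMIs, at 0.60 (-0.86 to 1.95).

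The same list had a log2 ratio of -0.91 (-0.94 to -0.88) in astrocyte nuclei, with 27 of 82 genes called lower, beside 4.6% of all genes there called lower and 2.17% called higher. Over all nuclei outside epend.1 it was -0.85 (-0.86 to -0.84), with 17 of 82 called lower, beside 4.36% of all genes called lower and 4.87% called higher. Over the whole cluster the ratio was -1.35 (-1.45 to -1.24), with 78 of 80 genes below 0 and 56 called lower, beside 9.4% of all genes. Without the nucleus of 56047 UMIs it was -1.02 (-1.13 to -0.92), with 74 of 80 below 0 and 38 called lower, beside 6.24% of all genes. The authors' own record of ribosomal transcripts per nucleus had a median of 1.11% in WT and 0.603% in HET Epithelial-labelled nuclei. Outside epend.1 these medians were 0.691% and 0.406%.

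Respiratory chain genes followed the same order. In Epithelial-labelled nuclei they stood at 6439 CPM in WT and 4222 CPM in HET, for a log2 ratio of -0.61 (-0.78 to -0.44). Of 40 genes with at least 20 UMIs, 33 had a ratio below 0 and 5 were called lower, beside 4.43% of all genes. Cox7b, a subunit of cytochrome c oxidase, had the lowest ratio, on 34 and 1 UMIs, at -3.68 (-9.03 to -1.11). Cox4i1, of the same complex, was level at 328 and 329 CPM, and Ndufs7, of complex I, had a ratio of 0.77 (-0.62 to 2.08). The list stood at -0.99 (-1.11 to -0.87) over the whole cluster, or -0.82 (-0.95 to -0.69) without the nucleus of 56047 UMIs, -0.69 (-0.73 to -0.65) in astrocyte nuclei and -0.60 (-0.61 to -0.60) outside epend.1.

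Immediate early and heat shock genes had a log2 ratio of -0.71 (-0.99 to -0.44) in Epithelial-labelled nuclei and -0.78 (-0.81 to -0.76) outside epend.1. All 5 of the 16 genes with at least 20 UMIs had a ratio below 0. Hsp90aa1, a cytosolic chaperone, was called lower, with 242 UMIs (1117 CPM) in WT and 44 UMIs (537 CPM) in HET, a ratio of -1.06 (-1.55 to -0.59). Ubb, a ubiquitin gene, was called lower too, at -1.12 (-2.19 to -0.18), beside 4.43% of all genes in these nuclei. Over the whole cluster the list stood at -1.23 (-1.47 to -1.0), or -0.85 (-1.09 to -0.62) without that nucleus.

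**Figure D4:**
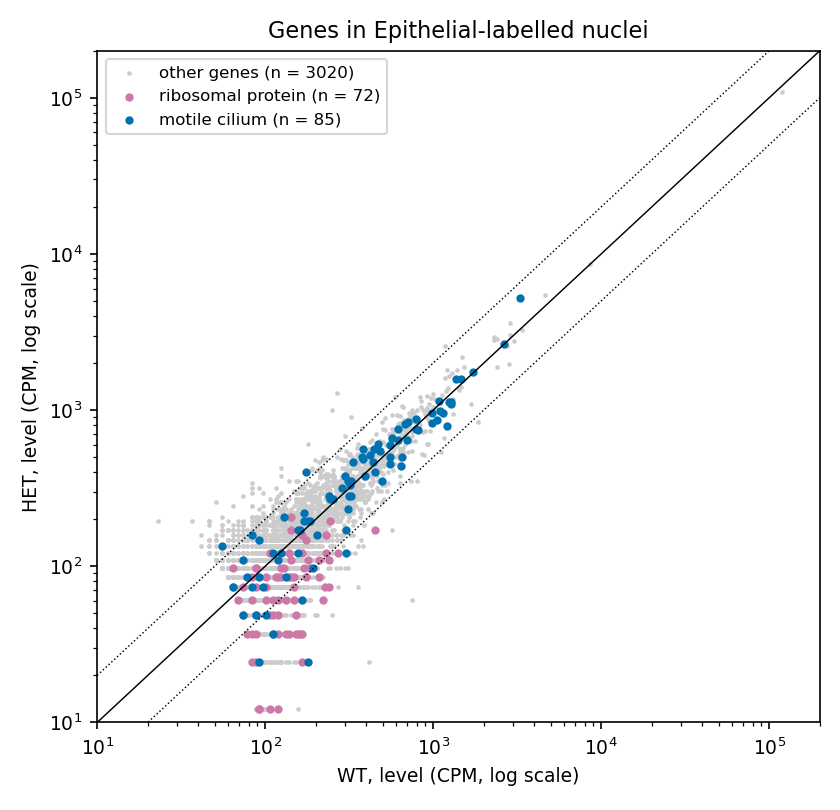
Level of each gene in Epithelial-labelled nuclei of WT (horizontal axis) and HET (vertical axis), in CPM on log scales, for genes with at least 20 UMIs there and a UMI in each library. The solid line marks equal levels and the dotted lines a 2-fold difference. Of the 72 ribosomal protein genes 64 lie below the solid line, and of the 85 motile cilium genes 40 do.

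Among single genes with at least 100 UMIs in Epithelial-labelled nuclei, 50 of 381 had an interval above 0 and 31 had an interval below 0. The genes furthest higher in HET were Wdr17, Unc5c, Kcnma1, 9530036O11Rik, Apoe, Gm16168, Lsamp, Foxn3, Plcb4 and Arhgap6. Wdr17 had 58 UMIs (268 CPM) in WT and 105 UMIs (1281 CPM) in HET, for a log2 ratio of 2.26 (1.78 to 2.75), beside 0.74 in astrocyte nuclei. Unc5c, a netrin receptor, had 54 and 82 UMIs and a ratio of 2.01 (1.49 to 2.53), beside 0.07 in astrocyte nuclei. Kcnma1, a calcium-activated potassium channel, had 70 and 74 UMIs and a ratio of 1.48 (0.99 to 1.98). Apoe, the lipid carrier apolipoprotein E, had 254 UMIs (1172 CPM) and 210 UMIs (2563 CPM), a ratio of 1.13 (0.86 to 1.4), beside -0.18 in astrocyte nuclei. These ratios set 25 HET against 63 WT nuclei.

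Among the 10 genes furthest lower in HET Epithelial-labelled nuclei were Ttr, Xist, Ptgds, Hsp90aa1, Dbi, Rp1, Tubb4b and Dalrd3. Ttr, the thyroid hormone carrier made by the choroid plexus, had 161 UMIs (743 CPM) in WT and 5 UMIs (61 CPM) in HET, for a log2 ratio of -3.61 (-5.25 to -2.35). A Ttr UMI was found in 62.5% of the Epithelial-labelled nuclei, but also in 52.2% of astrocyte and 50.3% of oligodendrocyte nuclei, at median depths of 2757, 3165 and 2807 UMIs. Outside epend.1 the Ttr ratio was -3.21 (-3.26 to -3.15). Xist, the long RNA that coats the inactive X chromosome, had 174 and 29 UMIs and a ratio of -1.18 (-1.8 to -0.61), beside -0.70 outside. The study's methods name Xist among genes taken out as a source of bias, but the deposited counts hold it. Ptgds, prostaglandin D synthase, had 400 and 69 UMIs and a ratio of -1.13 (-1.52 to -0.76), beside -0.79 outside. Rp1, a microtubule-associated protein of axonemes, had 95 and 18 UMIs and a ratio of -1.0 (-1.81 to -0.26).

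Over the whole cluster other genes led. Of 1129 genes with at least 100 UMIs, 228 had an interval above 0 and 247 below 0. The genes furthest higher in HET were Elavl2, Etl4, Zmat4, Efna5, Cdh18, Scn9a, Cdh12, Kcnh7, Pcdh9 and Zfp804a. Elavl2, a neuronal RNA-binding protein, had 22 UMIs in WT and 88 UMIs in HET, for a log2 ratio of 2.9 (2.22 to 3.65). Epithelial-labelled nuclei held 4 and 3 of these UMIs, and without the nucleus of 56047 UMIs the ratio was 0.94 (-0.06 to 1.92). Cdh18, a cadherin, had 93 and 295 UMIs and a ratio of 2.57 (2.23 to 2.92), or 1.75 (1.35 to 2.15) without that nucleus and 2.08 (0.85 to 3.38) in Epithelial-labelled nuclei. Pcdh9, a protocadherin, had 617 and 1525 UMIs and a ratio of 2.21 (2.07 to 2.35), or 0.46 (0.27 to 0.65) without it, against 0.55 (-0.03 to 1.11) in Epithelial-labelled nuclei. For the other 7 of these genes the ratios without it ran from 0.83 in Kcnh7 to 1.93 in Zfp804a. The neuronal markers as a list had a ratio of 0.98 (0.88 to 1.08) over the cluster, 0.13 (0.00 to 0.26) over the cluster without the nucleus of 56047 UMIs and 0.05 (-0.09 to 0.18) in subcluster 23 without the nucleus of 56047 UMIs.

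The genes furthest lower over the whole cluster were Vcan, Itga9, Gsn, Ttr, Ly6h, Cspg5, Gm38505, Xylt1, Tuba1a and Riiad1. Vcan had 116 UMIs in WT and 2 UMIs in HET, for a log2 ratio of -4.95 (-8.02 to -3.07), and 114 of its UMIs lay in subcluster 32. Itga9, Cspg5, Gm38505 and Xylt1, the other genes that led subcluster 32 over subcluster 23, had ratios of -4.77, -2.68, -2.53 and -2.5, and the Xylt1 ratio was -3.68 (-5.01 to -2.61) without the nucleus of 56047 UMIs. Gsn, the actin-severing protein gelsolin, lay mostly in ciliated nuclei. It had 90 UMIs in WT and 2 UMIs in HET Epithelial-labelled nuclei, a ratio of -4.09 (-7.16 to -2.19), beside -0.28 in astrocyte nuclei and 0.34 outside epend.1. In the same nuclei Ly6h had 77 and 6 UMIs, a ratio of -2.28 (-3.77 to -1.09). Riiad1 had 77 and 11 UMIs, a ratio of -1.4 (-2.47 to -0.49), and Tuba1a, an alpha-tubulin gene, 83 and 11 UMIs, a ratio of -1.51 (-2.57 to -0.60).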

How the data were processed

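Nuclei of 1 WT and 1 HET brainstem were profiled with 10x 3′ chemistry. Per the submitters' processing notes, reads were handled with Cell Ranger and Seurat 4.1 on mm10, and the authors deposited raw UMI counts per gene and nucleus after filters on nuclei under 1000 genes and on mitochondrial, hemoglobin and bias genes. The counts hold 0 mitochondrial and 0 hemoglobin genes, but 20 of the 25 named bias genes and 51 nuclei under 1000 genes, 1 of them in epend.1, and these were kept. The authors also deposited, for each nucleus, the percentage of mitochondrial and ribosomal transcripts, a doublet score, clusters and reference labels. All deposited nuclei are marked as singlets. The doublet caller and the reference behind these labels are not given in the sources used here, and no doublet was removed here. No deposited column of per-sample values was left without a sample (0 columns).

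UMIs were summed per library over the nuclei named, for 25556 genes, and scaled to CPM. The log2 ratio of HET over WT has an exact 95% Clopper-Pearson interval on the split of UMIs, and shares of nuclei and summed levels have exact binomial and Poisson intervals. Genes needed at least 20 UMIs in the nuclei compared. The steps were run on simulated Poisson counts drawn from the pooled levels of epend.1. These counts had no spread between nuclei and no mixture of subclusters, so the run says nothing on either. Of the listed genes, 2 were not in the counts. Genes are named by these rules: the 10 with the highest ratio over other nuclei, the 10 highest and 10 lowest of HET over WT whose interval excludes 0, and the 5 highest and 5 lowest between label groups with the same direction in both libraries, each with at least 100 UMIs in epend.1, besides the markers, Scn1a and members of the lists. Some genes that these rules name are not reported here. The rule for HET over WT was repeated in Epithelial-labelled nuclei, and the leading genes of subcluster 32 were taken with at least 20 UMIs. The members and lists were chosen with earlier results of these data known. Alternatives covered TMM and median scaling, depth, doublet score, labels and means over nuclei. Python 3.11.15 with numpy 2.4.6, pandas 2.3.3 and scipy 1.17.1 was used, and edgeR 4.0.16 in R 4.3.3 gave the TMM factors.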

Additional observations from a re-analysis of the deposited data

How the results depend on the processing

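No paired analysis was possible because each genotype had 1 library and the result comes from no test. The mean over nuclei of CPM was not run for the counts of genes, since it gives no interval. The choices of subcluster 23 and of leaving out the nucleus with the most UMIs were made after seeing the data. The cilium log2 ratio of -0.19 over epend.1 was -0.093 with TMM scaling, -0.12 with the median gene set to 0, -0.34 in nuclei with at least 2000 UMIs and -0.53 in subcluster 23. Reversed means here a change of sign alone, also where the new interval covers 0. The cilium ratio reversed to 0.041 (-0.01 to 0.10) in Epithelial-labelled nuclei and to 0.54 as a mean over nuclei. It reversed to 0.74 without the top 5% of the doublet score, a setting that also leaves out the nucleus with the most UMIs. Without that nucleus alone it reversed to 0.18, and the cause was not tested. In Epithelial-labelled nuclei, without the top doublet scores, without the largest nucleus, in subcluster 23 without it and as a mean over nuclei, the ribosomal protein ratio of -1.35 was -0.83, -1.1, -1.02, -0.92 and -0.96, and the respiratory chain ratio of -0.99 was -0.61, -0.87, -0.82, -0.74 and -0.80. The 352 genes called higher became 113 in Epithelial-labelled nuclei, 223 in subcluster 23 without the largest nucleus, 179 with a minimum of 50 UMIs and 606 with a minimum of 1 UMI. The 612 called lower became 141 in Epithelial-labelled nuclei, 330 without the top doublet scores, 385 without the largest nucleus, 281 in subcluster 23 without it and 263 with a minimum of 50 UMIs. The log2 ratio of the share of nuclei moved from -1.48 to -0.93 in subcluster 23. The cilium ratio of Neurons-labelled over Epithelial-labelled nuclei moved from -2.33 to -2.54 as a mean over nuclei and to -1.83 within subcluster 23. Without the nucleus with the most UMIs these were -2.14 over both subclusters and -1.48 within subcluster 23. The ependymal marker level moved from 4062 to 4865 CPM in subcluster 23. Of single genes, Cspg5 reversed to 0.40 (-3.06 to 3.21) and Gm38505 to 0.081 (-3.31 to 2.69) in Epithelial-labelled nuclei. These values rest on 4 WT and 2 HET UMIs of Cspg5 and 5 WT and 2 HET UMIs of Gm38505. In subcluster 23 Gm38505 reversed to 1.4 (-0.33 to 3.33), Xylt1 to 1.06 (-0.09 to 2.26) and Dnah12 to -0.082 (-0.24 to 0.07). Without the largest nucleus Dnah12 was 0.30 there, and Gm38505 was 1.83 (0.09 to 3.75) likewise. Xylt1 was then back below 0, at -1.02 (-3.49 to 0.87) on 12 WT and 3 HET UMIs. Of the remaining values of single genes, 39 moved and 95 stayed within their interval. Of the 95, 24 were under TMM and 24 under median scaling. These apply 1 log2 offset to all genes, -0.092 and -0.066, so they could hardly leave the interval of a single gene. The depth and doublet score settings were not run for single genes. Depth limits the values of single genes, with 81947 UMIs in the 25 HET Epithelial-labelled nuclei and 6996 in the 3 HET nuclei of subcluster 32.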

Other observations

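Further lists were summed in Epithelial-labelled nuclei, where 3.55% of 3183 genes were called higher and 4.43% lower. Intraflagellar transport genes, which carry cargo along the cilium, had a log2 ratio of HET over WT of -0.04 (-0.23 to 0.14), with 10 of 22 genes above 0, and Wdr19 was the 1 gene called lower, at -2.3 (-5.42 to -0.30). Planar polarity and junction genes had a ratio of 0.07 (-0.20 to 0.34), with Prickle2 at 0.53 (0.05 to 0.99). Glycolysis genes had a ratio of -0.35 (-0.76 to 0.04), with 8 of 8 genes below 0. The tricarboxylic acid cycle genes had a ratio of 0.02 (-0.38 to 0.40). Mucin type O-glycan genes had a ratio of 0.61 (0.24 to 0.97) on 4 genes, and Galnt1, which starts O-glycan chains, was called higher at 1.31 (0.19 to 2.42). ErbB signaling genes had a ratio of 0.19 (0.04 to 0.33), and Nrg3, a neuregulin, was called higher at 1.18 (0.54 to 1.81). Cell adhesion molecules had a ratio of 0.04 (-0.08 to 0.16).

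Markers of other cell types were also summed in these nuclei. Choroid plexus markers had a ratio of -2.12 (-2.93 to -1.41) on 196 WT and 17 HET UMIs, of which 161 and 5 were Ttr. The other 9 choroid plexus markers had 35 and 12 UMIs and a ratio of -0.14 (-1.22 to 0.84). Astrocyte markers had a ratio of 0.52 (0.14 to 0.89), oligodendrocyte markers 0.13 (-0.14 to 0.40) and neuronal markers 0.20 (-0.06 to 0.44). Tanycyte markers had a ratio of 0.82 (-0.13 to 1.73), microglia markers -0.14 (-0.86 to 0.53), endothelial markers -0.35 (-1.7 to 0.83), fibroblast and mural markers -0.33 (-1.94 to 1.03) and OPC markers -0.77 (-4.02 to 1.51). The part of these cell types in the other values was not tested.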
